A study of Mus musculus with 12 samples.

Results

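The genes described here encode the ephrins and Eph receptors, the slits and their Robo receptors, and the netrins with the receptors Dcc and Unc5a to Unc5d. They were chosen as families of guidance ligands and receptors, and a probe set was used where the platform annotation gave exactly 1 gene symbol, that of a family gene. Of 37 such genes, 36 had a probe set among the 19934 genes measured, namely 14 ligand genes and 22 receptor genes on 39 probe sets. Ephb2 had none. Epha10, Ephb1 and Unc5d had several, which are given separately.

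Affymetrix arrays gave the transcript levels of 12 untreated mouse brain cell cultures, 1 array each, grown attached in stem cell medium. All came from mice lacking Arf and carrying the avian virus receptor tv-a under a brain cell promoter, that of Gfap in the G/tv-a line, Nes in the N/tv-a line and Cnp in the C/tv-a line. Tumour cultures, labelled glioma stem cells, came from glioblastomas raised in adult brain by injecting DF-1 chicken cells that release a PDGFB-encoding retrovirus, with 3 cultures per line. Those of the G/tv-a line form group mGC1_GFAP, those of the N/tv-a line mGC2_NES and those of the C/tv-a line mGC3_CNP. The NSC group held 3 neural stem cell cultures from the adult subventricular zone, 1 per line, also Arf-/-. Origin and mouse line therefore cannot be told apart among the tumour groups, and whether the cultures stem from separate animals is not labelled. The p-values then reflect only how far the cultures spread, which may be technical.

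These families carry signals between cells that meet or steer past each other. Ephrins are ligands held on the cell surface, A-type by a lipid anchor and B-type by a transmembrane segment, and Eph receptors are tyrosine kinases that mostly bind ephrins of the matching type. Slits are secreted proteins that repel cells through Robo receptors, and netrins are secreted proteins that attract through Dcc and repel through Unc5 receptors. In brain these cues guide axons and also migrating neuroblasts and oligodendrocyte precursors.

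Values are log2 RMA summaries, and a level is only compared within its own probe set, apart from the background reading below. Calls are limma results with an adjusted p under 0.05 (Benjamini-Hochberg over all 21780 probe sets). Arrays have no true zero, so 4 genes of spermatids (Odf1, Prm2, Tnp1 and Tnp2) stood for absent transcripts, and their highest reading, 7.42, is called background here. That reading came from Prm2 alone, and Odf1, Tnp1 and Tnp2 stayed at or below 6.66. The cut thus compares different probe sets, and a level under it does not show absence. A called difference whose lower mean lies at or below 7.42 is a lower bound on its size, and is given as "at least" or said to be a bound. The same was done for Unc5c against NSC, whose NSC mean of 7.43 lies at that reading. It was also done for Robo2 in all tumour cultures against NSC, since the mGC2_NES mean of 7.17 lies under it. By this reading 26 of the 36 genes were above background in at least 1 group and 15 in all 4. Of all probe sets, 60.5% were above it in at least 1 group. Epha1, Epha3, Epha6, Epha7, Epha8, Efna5, Efnb3, Slit2, Robo3 and Robo4 stayed at or below it in every group mean.

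The labelled cell types were checked on fixed markers. The 6 oligodendrocyte precursor markers averaged 12.60 to 12.80 in tumour arrays and 10.08 to 10.32 in NSC arrays, and 4 of them (Pdgfra, Cspg4, Sox10 and Gpr17) were higher in tumour cultures. Of 6 neural stem cell markers, 4 were lower in tumour cultures and none was higher by limma, with array means of 9.26 to 9.80 against 11.33 to 11.51. Of 6 astrocyte markers, 5 were lower and 1 higher, at 7.16 to 7.76 against 9.58 to 9.77. All 6 stem cell markers were above background in NSC cultures. Microglial Aif1, Csf1r, Itgam, P2ry12 and Ptprc and endothelial Cdh5, Cldn5, Kdr, Pecam1 and Tek were at or below background on both sides. So were Rbfox3, Stmn2 and Tubb3 of the neurons and Dcn, Lum, Pdgfrb and Rgs5 of pericytes and fibroblasts. The other genes of these lists had a mean above background on at least 1 side. Means in tumour and NSC cultures were 7.54 and 7.49 for Cx3cr1 and 7.57 and 8.10 for Flt1. They were 9.01 and 7.13 for Dcx, 8.45 and 8.83 for Snap25 and 7.80 and 7.59 for Syt1. Col1a1 stood at 8.28 on both sides and Col3a1 at 7.71 and 7.67. Absence of these cell types was thus not shown. The oligodendrocyte precursor, oligodendrocyte, stem cell and astrocyte lists moved with every tumour against NSC difference below. The part of any marker list in these differences was not tested. In bulk cultures, fewer cells of a type and less RNA per cell cannot be told apart. The G/tv-a NSC culture held both Xist, at 11.86, and Y-linked transcripts (mean 8.39), which occurred together in no other culture. Of the 3 oligodendrocyte markers called, all were higher in tumour cultures (5 measured), and of the neuron, microglia, endothelial and pericyte lists (6 genes each) 1, 1, 1 and 3 were called. Without the G/tv-a NSC culture, 8 guidance probe sets were called higher and 12 lower in tumour cultures, against 9 and 13 with it.

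The promoter windows of the Unc5 and EphB receptor genes are shown because genes of the same family moved in opposite directions, with Unc5c, Unc5a, Ephb1 and Ephb3 higher and Unc5b and Ephb4 lower in tumour cultures. Each is the 250 bases before the RefSeq start in GRCm38.p6, 5′ to 3′ on the gene's strand. They lie at chr3:141465314-141465563 (plus strand, Unc5c), chr13:54949161-54949410 (plus, Unc5a), chr10:60831582-60831831 (minus, Unc5b), chr9:102354694-102354943 (minus, Ephb1), chr16:21204545-21204794 (plus, Ephb3) and chr5:137349859-137350108 (plus, Ephb4). Capitals mark matches on either strand to the GC box letters GGGCGG, the E-box CAGCTG or the SOX-type motif ACAAAG.
Unc5c: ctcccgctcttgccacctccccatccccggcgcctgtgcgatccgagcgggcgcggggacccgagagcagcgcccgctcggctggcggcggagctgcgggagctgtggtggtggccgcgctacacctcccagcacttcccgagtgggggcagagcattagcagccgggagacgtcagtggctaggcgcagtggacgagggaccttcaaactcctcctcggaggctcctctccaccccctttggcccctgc
Unc5a: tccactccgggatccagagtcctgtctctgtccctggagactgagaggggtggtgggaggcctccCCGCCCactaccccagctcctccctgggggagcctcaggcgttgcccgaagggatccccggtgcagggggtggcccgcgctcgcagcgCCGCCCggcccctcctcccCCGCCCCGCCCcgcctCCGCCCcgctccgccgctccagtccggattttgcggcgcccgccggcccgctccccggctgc
Unc5b: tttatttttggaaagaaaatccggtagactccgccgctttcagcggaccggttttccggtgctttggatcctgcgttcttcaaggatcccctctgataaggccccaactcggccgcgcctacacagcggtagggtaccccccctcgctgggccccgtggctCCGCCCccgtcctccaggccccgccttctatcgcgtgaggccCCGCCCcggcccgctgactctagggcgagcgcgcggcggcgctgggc
Ephb1: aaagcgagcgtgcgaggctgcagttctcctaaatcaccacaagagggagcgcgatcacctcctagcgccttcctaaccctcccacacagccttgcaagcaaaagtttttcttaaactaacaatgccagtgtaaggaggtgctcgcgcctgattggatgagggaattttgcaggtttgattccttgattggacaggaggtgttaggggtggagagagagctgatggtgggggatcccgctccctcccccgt
Ephb3: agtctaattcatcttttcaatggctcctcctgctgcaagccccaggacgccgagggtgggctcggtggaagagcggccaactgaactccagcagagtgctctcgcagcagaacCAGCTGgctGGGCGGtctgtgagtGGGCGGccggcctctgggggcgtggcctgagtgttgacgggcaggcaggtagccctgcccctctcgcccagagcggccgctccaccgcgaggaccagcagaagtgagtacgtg
Ephb4: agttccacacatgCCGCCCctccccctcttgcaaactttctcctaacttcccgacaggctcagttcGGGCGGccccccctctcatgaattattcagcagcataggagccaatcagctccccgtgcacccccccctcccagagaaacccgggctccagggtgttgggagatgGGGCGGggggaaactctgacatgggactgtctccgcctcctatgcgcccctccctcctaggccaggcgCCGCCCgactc

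The Unc5a window held 5 GC boxes, Ephb4 had 4, Unc5b and Ephb3 had 2 each, and Unc5c and Ephb1 had 0. Genes that rose held 0 to 5 GC boxes and genes that fell 2 to 4. Only Ephb3 held the E-box, and the SOX-type letters were in none of these 6 windows. RefSeq entries were found for 32 of the 37 genes, with 37 windows. Efnb3, Slit1, Ntn1, Dcc and Unc5d had no entry. A GC box was present in 26 of the 37 windows, against 32.7% of all 32851 windows of that length. An E-box was in 5 (13% of all) and the SOX-type motif in 2 (16.5% of all). The 37 windows were also richer in CG pairs, with a median of 17 against 6 over all windows. GC box shares were not compared at equal CG content. A match is a run of letters and was not tested as a binding site.

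Setting tumour against NSC cultures asked which guidance genes set the tumour cells apart from stem cells of the same mouse lines. The clearest change was in the netrin receptors, where Unc5c and Unc5a rose by at least 4.05 ± 0.07 and 2.26 ± 0.11 on the log2 scale (± SE) while Unc5b fell. Among Eph genes, Epha2, Epha4, Epha5, Epha7 and Ephb4 fell and Ephb1 and Ephb3 rose. Among ephrins, Efna1, Efna2 and Efna3 rose and Efna4, Efnb1 and Efnb2 fell. Robo2 was lower by at least 1.86 ± 0.22 in size. Of the 36 genes, 9 rose (17.6% of all probe sets did), 13 fell (19.2% of all) and 14 did not pass. The 22 called probe sets were 56.4% of the 39, against 36.7% of all probe sets tested, and 12 differed at least 2-fold (30.8%, against 7.36% of all). Tumour and NSC arrays did not overlap for 21 of the 39, against 27.3% of all probe sets.

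**Figure D1:**
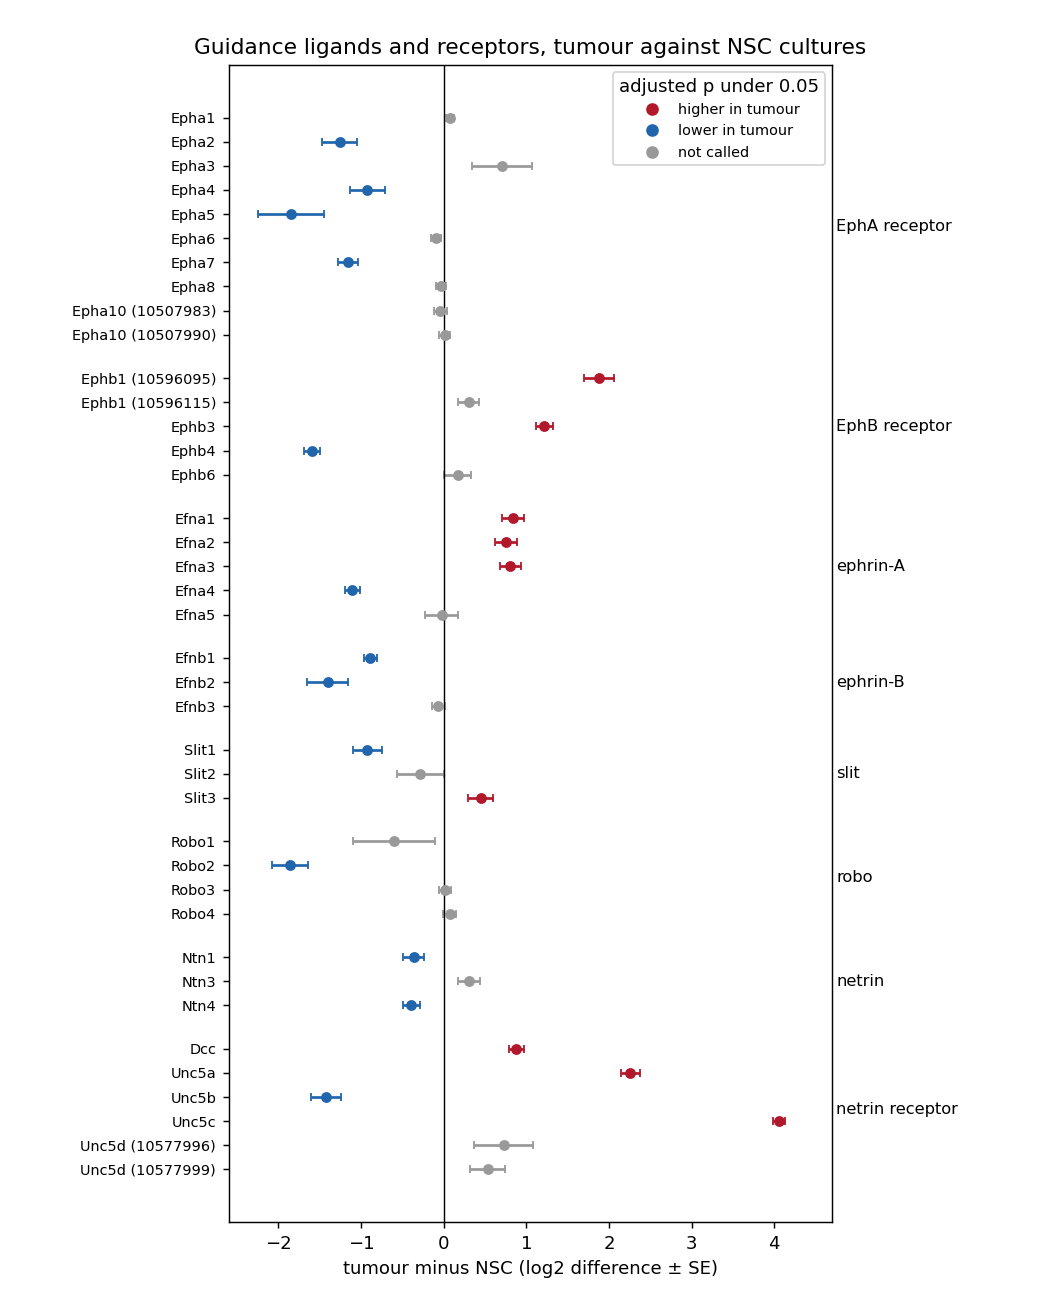
Tumour minus NSC difference (log2, point ± SE from limma) of each of the 39 probe sets, grouped by class, with red for a called rise, blue for a called fall and grey for no call. EphA receptors have 4 falls and 0 rises, while ephrin-A genes have 3 rises and 1 fall, and Unc5c stands furthest right at 4.05.

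Counted by role, 4 ligand genes rose, 6 fell and 4 did not pass, and 5 receptor genes rose, 7 fell and 10 did not pass. Called were 71.4% of the 14 ligand and 48% of the 25 receptor probe sets, against 36.7% of all (17.6% higher, 19.2% lower). The median difference was -0.17 over ligand probe sets and 0.01 over receptor probe sets, beside 0.01 over all probe sets. Calls went in both directions among ligands and among receptors. When only ligands with a mean above background in some group were kept, their median was -0.36.

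Unc5c, a netrin receptor of the repulsive kind, read 11.63, 11.59 and 11.59 in the 3 mGC1_GFAP cultures, 11.31, 11.40 and 11.33 in mGC2_NES and 11.54, 11.48 and 11.44 in mGC3_CNP. In the C/tv-a, N/tv-a and G/tv-a NSC cultures it read 7.21, 7.47 and 7.61. All tumour cultures were thus high and close together, and the NSC mean lay at about the background reading. The difference corresponded to at least 16.6-fold (adjusted p = 1.3e-11). Unc5a, a receptor of the same family, was at 9.33, 9.68 and 9.59 in mGC1_GFAP, 9.77, 9.69 and 9.32 in mGC2_NES, 9.52, 9.95 and 9.74 in mGC3_CNP, and 7.29, 7.41 and 7.38 in NSC. Its groups did not overlap either, at 9.62 ± 0.21 (SD, n = 9) against 7.36 ± 0.07 (SD, n = 3), at least 4.79-fold (adjusted p = 4.06e-08).

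Unc5b, known as the Unc5 receptor of blood vessels, went the other way. It read 7.17, 7.36 and 7.73 in mGC1_GFAP, 7.22, 7.31 and 7.37 in mGC2_NES, 7.24, 7.52 and 7.63 in mGC3_CNP and 8.80, 9.35 and 8.31 in the C/tv-a, N/tv-a and G/tv-a NSC cultures. The tumour cultures lay around background and all below the NSC cultures, a difference of -1.42 ± 0.18 or more in size (adjusted p = 7.54e-05). Dcc, the attractive netrin receptor, was higher in all 9 tumour cultures, at 9.16 ± 0.47 against 8.28 ± 0.18 in NSC, a rise of 0.88 ± 0.09 (adjusted p = 1.61e-05). Unc5d did not pass on either probe set, at 0.73 ± 0.35 (adjusted p = 0.14) and 0.53 ± 0.22 (adjusted p = 0.077), and its tumour values spread from 6.28 to 8.78 and from 6.91 to 8.58.

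**Figure D2:**
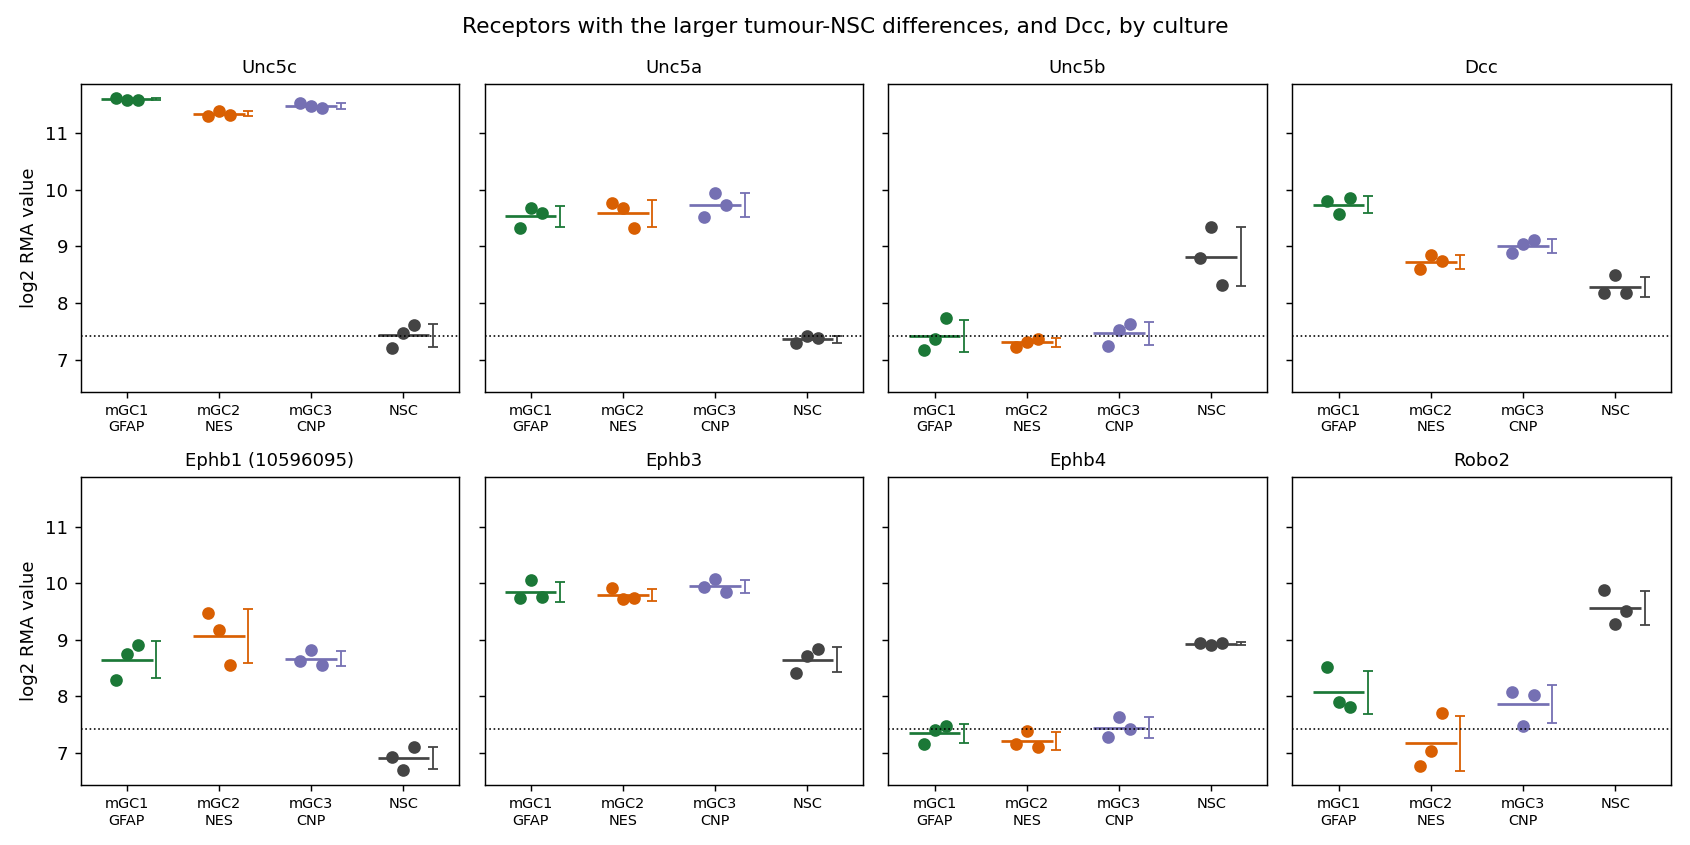
Log2 RMA values of 8 receptor probe sets, with a point per culture, a line at each group mean and a bar for ± 1 SD (n = 3 per group), and a dotted line at the background reading of 7.42. Unc5c, Unc5a, Ephb1 and Ephb3 are high in the tumour groups, Unc5b, Ephb4 and Robo2 are high in NSC, and Dcc is highest in mGC1_GFAP.

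The netrin ligands moved less than their receptors. Ntn1, the founding netrin, was at 9.47 ± 0.26 in tumour and 9.83 ± 0.27 in NSC cultures, a difference of -0.36 ± 0.13 (adjusted p = 0.0464) with overlapping arrays. That call was lost without the C/tv-a or the G/tv-a NSC culture, mGC1_GFAP replicate 1 or 3, mGC2_NES replicate 2 or 3, or mGC3_CNP replicate 1 (adjusted p = 0.062 to 0.239, differences of -0.36 to -0.24). Ntn4, a netrin of basement membranes, was lower by -0.39 ± 0.10 (adjusted p = 0.00925), also with overlap. It no longer passed without the C/tv-a (-0.29, adjusted p = 0.0685) or the N/tv-a NSC culture (-0.34, adjusted p = 0.0545). Ntn3 differed by 0.31 ± 0.14 (adjusted p = 0.111).

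Of 9 EphA receptor genes, Epha2, Epha4, Epha5 and Epha7 fell, 0 rose and 5 did not pass. Their share of called probe sets, 40.0%, was near the 36.7% of all probe sets. Epha2, a receptor of epithelial and progenitor cells, read 6.93, 6.82 and 6.76 in mGC1_GFAP, 7.11, 7.27 and 6.95 in mGC2_NES, 6.60, 6.81 and 6.73 in mGC3_CNP, and 7.96, 8.94 and 7.53 in the C/tv-a, N/tv-a and G/tv-a NSC cultures. All tumour values were under background while the NSC cultures were above it and uneven, the N/tv-a culture being highest. The difference was at least 1.26 in size (-1.26 ± 0.22, adjusted p = 6.65e-04).

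Epha5 showed the widest scatter among those that fell. It was at 7.68, 6.59 and 7.18 in mGC1_GFAP, 6.34, 6.33 and 6.74 in mGC2_NES, 5.66, 7.47 and 8.0 in mGC3_CNP and 8.51, 8.57 and 9.13 in NSC. Even the highest tumour culture, mGC3_CNP replicate 3, stayed below the NSC range, and the difference was at least 1.85 in size (-1.85 ± 0.40, adjusted p = 0.00301). Epha7 read 5.73, 5.75 and 5.56 in mGC1_GFAP, 5.68, 5.53 and 5.81 in mGC2_NES, 5.65, 5.69 and 5.74 in mGC3_CNP, and 6.59, 7.25 and 6.67 in NSC. Its groups were apart (adjusted p = 1.55e-05), but both means lay under background, so no size is given. By this reading its presence on either side was not shown. Its NSC mean of 6.84 was above the other background reading tried, the olfactory receptor 95th percentile of 6.64. Epha4, which binds ephrins of both types, fell from 8.92 ± 0.63 to 7.99 ± 0.24 (-0.92 ± 0.21, adjusted p = 0.00465). Without the G/tv-a NSC culture, which read 9.61, the Epha4 difference was -0.58 and still passed (adjusted p = 0.0171). Epha1, Epha3, Epha6, Epha8 and Epha10 did not pass, with differences from -0.09 for Epha6 to 0.70 for Epha3.

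The EphB receptors split. Ephb1 read 8.28, 8.75 and 8.91 in mGC1_GFAP, 9.48, 9.18 and 8.55 in mGC2_NES, 8.62, 8.81 and 8.56 in mGC3_CNP, and 6.93, 6.70 and 7.10 in NSC on probe set 10596095. Every tumour culture was above background and every NSC culture below it, a rise of at least 1.88 ± 0.18 (3.69-fold, adjusted p = 7.91e-06). The other Ephb1 probe set, 10596115, lay below background in all 4 groups and differed by 0.30 ± 0.13 (adjusted p = 0.0957), so the 2 probe sets of this gene did not give the same call. Ephb3 was at 9.73, 10.06 and 9.76 in mGC1_GFAP, 9.92, 9.73 and 9.75 in mGC2_NES, 9.93, 10.07 and 9.84 in mGC3_CNP, and 8.40, 8.70 and 8.83 in NSC. It stood well above background throughout and rose by 1.22 ± 0.10 (2.33-fold, adjusted p = 2.3e-06).

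Ephb4, known as the partner of ephrin-B2 in forming veins, was at 7.16, 7.41 and 7.48 in mGC1_GFAP, 7.15, 7.39 and 7.10 in mGC2_NES, 7.27, 7.64 and 7.42 in mGC3_CNP, and 8.94, 8.90 and 8.95 in NSC. The NSC cultures agreed within 0.03 (SD, n = 3), and the tumour cultures lay around background, a fall of at least 1.59 in size (-1.59 ± 0.09, 3.02-fold, adjusted p = 1.28e-07). Ephb6, whose kinase domain is inactive, differed by 0.17 ± 0.16 (adjusted p = 0.481).

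Among A-type ephrins, Efna1, Efna2 and Efna3 rose by similar amounts. Efna1 went from 7.38 ± 0.26 (SD, n = 3) in NSC to 8.22 ± 0.27 (SD, n = 9) in tumour cultures, at least 0.84 ± 0.13 (adjusted p = 3.55e-04). Efna2 went from 8.99 ± 0.24 to 9.74 ± 0.23 (0.76 ± 0.13, adjusted p = 6.74e-04), and Efna3 from 7.94 ± 0.20 to 8.74 ± 0.24 (0.81 ± 0.13, adjusted p = 3.97e-04). None of the 3 overlapped between tumour and NSC arrays. Efna4 did the reverse, with 7.53, 7.60 and 7.54 in mGC1_GFAP, 7.63, 7.72 and 7.62 in mGC2_NES, 7.49, 7.66 and 7.68 in mGC3_CNP, and 8.76, 8.96 and 8.41 in NSC. Its tumour values lay within 7.49 to 7.72, below all NSC cultures (-1.10 ± 0.10, adjusted p = 3.44e-06). Efna1, Efna3 and Efna4 are consecutive protein-coding genes on chromosome 3 in the RefSeq order, so neighbours there went in opposite directions. Efna5 differed by -0.02 ± 0.20 (adjusted p = 0.954), with mGC1_GFAP replicate 2 at 8.09 and the other tumour cultures at 7.04 or below.

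B-type ephrins fell or did not pass. Efnb2, a ligand of arteries and of stem cell niches, read 7.97, 8.19 and 8.09 in mGC1_GFAP, 8.36, 8.30 and 7.86 in mGC2_NES, 7.98, 8.47 and 8.27 in mGC3_CNP, and 9.71, 10.29 and 8.71 in the C/tv-a, N/tv-a and G/tv-a NSC cultures. The tumour cultures were alike and the NSC cultures uneven, with the lowest of them still above every tumour culture (-1.40 ± 0.25, 2.65-fold, adjusted p = 8.9e-04). Efnb1, which lies on chromosome X, fell from 9.54 ± 0.14 to 8.65 ± 0.11 (-0.89 ± 0.08, adjusted p = 5.77e-06). Its arrays did not overlap, and each side held cultures with and without Y-linked transcripts. Efnb3 differed by -0.06 ± 0.08 (adjusted p = 0.588), below background on both sides.

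**Figure D3:**
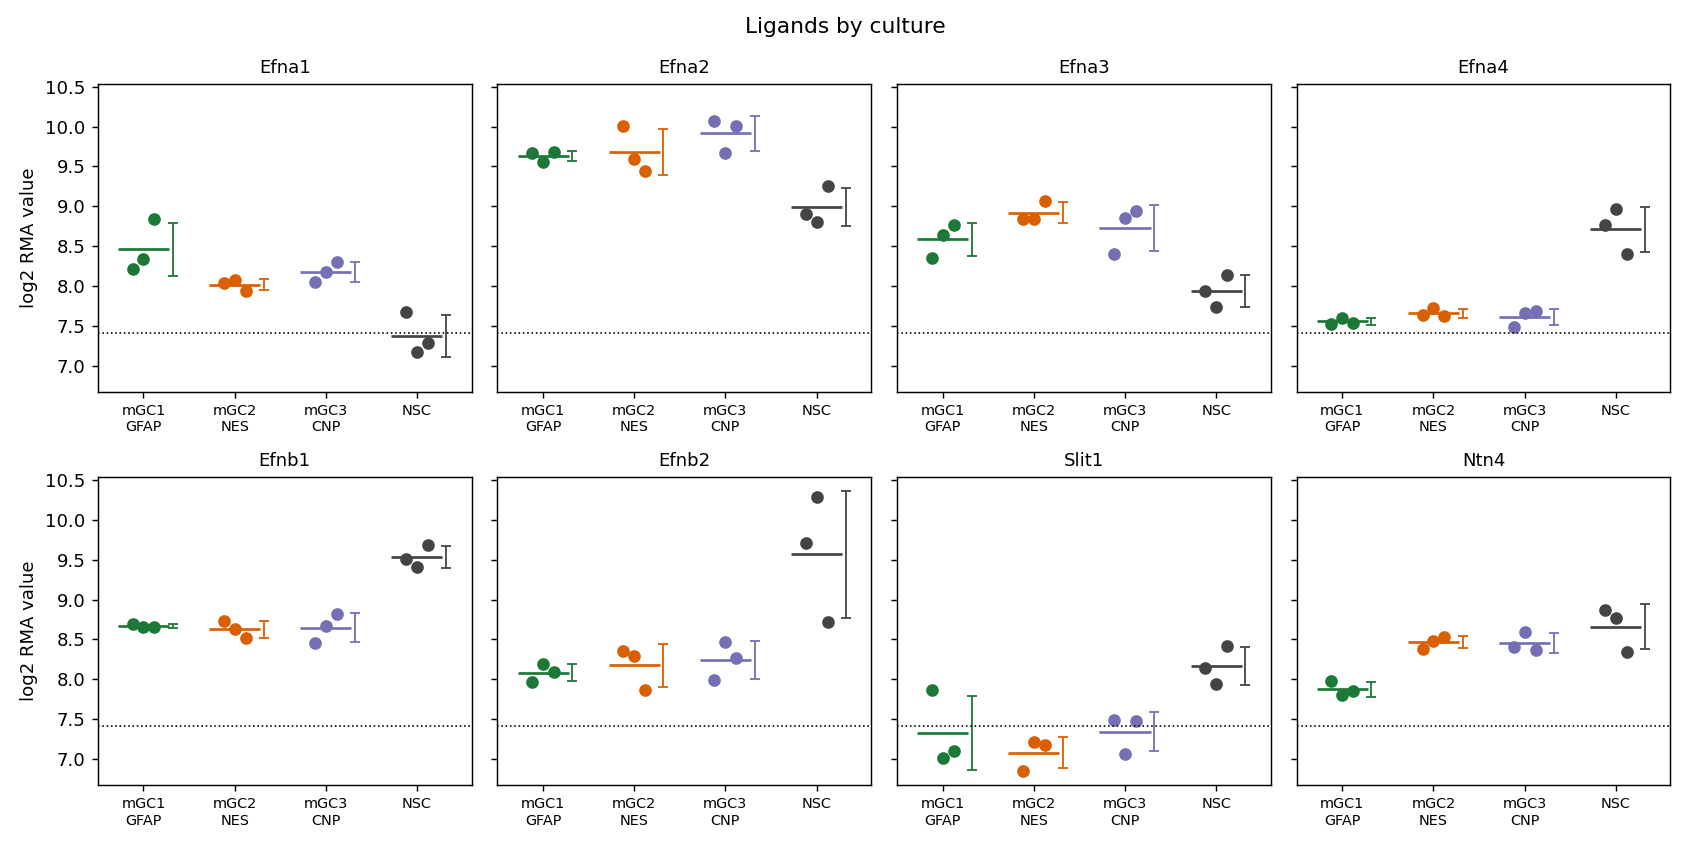
Log2 RMA values of 8 ligand probe sets by culture, drawn as for the receptors (point per culture, line at the mean, bar ± 1 SD, n = 3 per group, dotted line at 7.42). Efna1, Efna2 and Efna3 are higher in all tumour cultures than in NSC, Efna4, Efnb1, Efnb2 and Slit1 are lower, and Ntn4 is lowest in mGC1_GFAP.

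Of the 3 slit and 4 Robo probe sets, 2 slits (66.7%) and 1 Robo (25.0%) were called, against 36.7% of all probe sets. Slit1 was at 7.25 ± 0.31 in tumour and 8.17 ± 0.24 in NSC cultures without overlap, at least 0.92 lower (-0.92 ± 0.18, adjusted p = 0.00142). Slit3 read 7.46 ± 0.28 in tumour cultures, about at background, and 7.01 ± 0.10 in NSC cultures, under it. It was higher in tumour cultures by at least 0.45 ± 0.16 (limma adjusted p = 0.0425), with the mGC3_CNP mean of 7.35 also under background. The Slit3 call was lost without any 1 of the NSC cultures, without mGC2_NES replicate 2 or 3, and without mGC3_CNP replicate 2 or 3 (adjusted p = 0.0539 to 0.152, differences of 0.39 to 0.49). Slit2 differed by -0.28 ± 0.29 (adjusted p = 0.508).

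Robo2, a slit receptor of neurons and their progenitors, read 8.51, 7.90 and 7.80 in mGC1_GFAP, 6.77, 7.03 and 7.70 in mGC2_NES, 8.07, 7.48 and 8.03 in mGC3_CNP, and 9.88, 9.28 and 9.50 in NSC. All tumour cultures were below the NSC range. The means were 7.70 ± 0.54 (SD, n = 9) and 9.56 ± 0.30 (SD, n = 3), at least 3.62-fold apart (-1.86 ± 0.22, adjusted p = 4e-05). The size is a bound, since the mGC2_NES mean of 7.17 lay under background. Robo1, its neighbour on chromosome 16, was uneven among tumours and did not pass (-0.60 ± 0.49, adjusted p = 0.397). Robo3 and the endothelial receptor Robo4 lay below background on both sides and differed by 0.01 ± 0.07 and 0.07 ± 0.08.

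**Figure D4:**
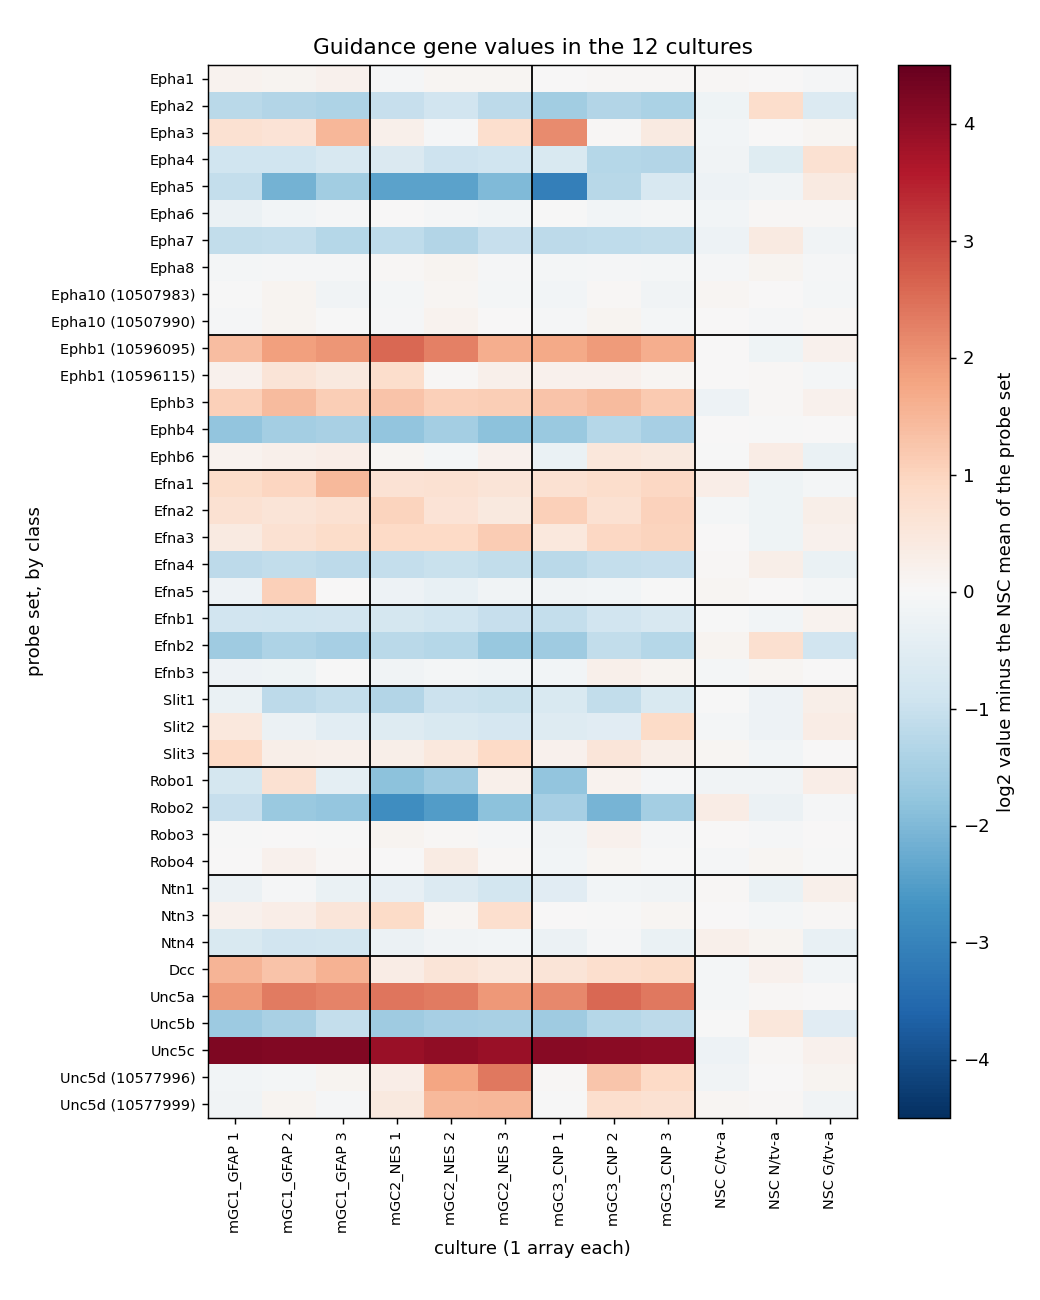
Each of the 39 probe sets (rows, by class) in each of the 12 cultures (columns), coloured by the log2 value minus that probe set's NSC mean. The Unc5c row is dark red across all 9 tumour cultures, and the rows of Epha5, Robo1 and Unc5d differ between cultures of the same group.

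Each tumour group was also set against NSC. The 3 comparisons share the NSC arrays and are given side by side only. In mGC1_GFAP 8 genes rose and 12 fell, with 51.3% of probe sets called against 29.3% of all (13.9% higher, 15.3% lower). In mGC2_NES 11 rose and 12 fell, 61.5% against 34.9% (16.6% higher, 18.2% lower). In mGC3_CNP 8 rose and 11 fell, 48.7% against 30.3% (14.9% higher, 15.5% lower). Unc5c differed by at least 4.18 ± 0.09, 3.92 ± 0.09 and 4.06 ± 0.09, in that order. Robo2 differed by -1.48 ± 0.27 in mGC1_GFAP, by -2.39 ± 0.27 in mGC2_NES, a bound with that group's mean at 7.17, and by -1.70 ± 0.27 in mGC3_CNP. In mGC2_NES, Unc5d passed on both probe sets, at least 1.48 ± 0.43 (adjusted p = 0.0191) and 1.14 ± 0.26 (adjusted p = 0.00535) over NSC means under background, beside -0.04 and -0.02 in mGC1_GFAP and 0.73 and 0.48 in mGC3_CNP. Ntn3 was at 0.56 ± 0.17 in mGC2_NES (adjusted p = 0.0232), beside 0.34 and 0.02. Ntn4 was at -0.78 ± 0.12 in mGC1_GFAP (adjusted p = 5.71e-04), beside -0.19 and -0.20 in mGC2_NES and mGC3_CNP.

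Several of these group calls did not pass without 1 culture, some of them without any 1 of several. The differences of Epha2, Epha5, Slit1, Slit3 and Unc5d given next are bounds, since 1 side lay under background. Epha4 did not pass in mGC1_GFAP or mGC2_NES without the G/tv-a NSC culture (-0.50 and -0.49, adjusted p = 0.0764 and 0.073), nor in mGC1_GFAP without the C/tv-a NSC culture or any 1 mGC1_GFAP culture (adjusted p = 0.0502 to 0.0808), nor in mGC2_NES without mGC2_NES replicate 2 or 3 (adjusted p = 0.0833 and 0.0748). Epha5 did not pass in mGC1_GFAP without any 1 of the NSC cultures or mGC1_GFAP replicate 2 or 3 (adjusted p = 0.0532 to 0.109), nor in mGC3_CNP without the G/tv-a NSC culture (-1.49, adjusted p = 0.0706). Epha5 in mGC3_CNP was -1.69 with all cultures and -1.0 without mGC3_CNP replicate 1, and Epha2 in mGC2_NES was -1.04 and moved to -0.64 without the N/tv-a NSC culture, each still passing. Slit1 did not pass in mGC1_GFAP without mGC1_GFAP replicate 2 (-0.69, adjusted p = 0.0512) or in mGC3_CNP without mGC3_CNP replicate 2 (-0.69, adjusted p = 0.0547). In mGC2_NES, Ntn3 did not pass without the C/tv-a or N/tv-a NSC culture or mGC2_NES replicate 1 or 3 (adjusted p = 0.0517 to 0.0938). Unc5d probe set 10577996 did not pass there without the C/tv-a NSC culture or mGC2_NES replicate 2 or 3 (adjusted p = 0.0616 to 0.0762). Slit3 did not pass there without any 1 NSC culture, mGC2_NES replicate 2 or 3, or mGC3_CNP replicate 3 (adjusted p = 0.0576 to 0.169).

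The study's question of origin was addressed by comparing the tumour groups with each other. Y-linked transcripts were present in 2 mGC1_GFAP, 2 mGC2_NES and 0 mGC3_CNP cultures, and the part of sex in these comparisons was not tested. The calls were in the netrin Ntn4 and the netrin receptors Dcc, Unc5c and Unc5d. By the moderated F test, Dcc (adjusted p = 0.00459) and Ntn4 (adjusted p = 0.0117) differed among the 3 groups, 2 of 39 probe sets (5.13%), near the 4.05% of all. Dcc read 9.81, 9.57 and 9.85 in mGC1_GFAP, 8.60, 8.85 and 8.74 in mGC2_NES and 8.88, 9.04 and 9.12 in mGC3_CNP. The mGC1_GFAP cultures lay above all the others, by 1.01 ± 0.10 over mGC2_NES (2.01-fold, adjusted p = 0.00239) and by 0.73 ± 0.10 over mGC3_CNP (1.66-fold, adjusted p = 0.0251). The mGC2_NES and mGC3_CNP groups differed by -0.28 ± 0.10 (adjusted p = 0.283), so their order was not settled. Dcc against mGC3_CNP did not pass without mGC1_GFAP replicate 1 or 3, mGC2_NES replicate 3 or any 1 mGC3_CNP culture (adjusted p = 0.0535 to 0.0993, differences of 0.66 to 0.78).

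Ntn4 went the other way from Dcc. It was at 7.98, 7.80 and 7.85 in mGC1_GFAP, 8.38, 8.48 and 8.53 in mGC2_NES and 8.40, 8.59 and 8.37 in mGC3_CNP. The mGC1_GFAP cultures were below all the others, by -0.59 ± 0.08 against mGC2_NES (adjusted p = 0.00721) and -0.58 ± 0.08 against mGC3_CNP (adjusted p = 0.0269), while mGC2_NES and mGC3_CNP differed by 0.01 ± 0.08. Without mGC2_NES replicate 2 or 3, any 1 mGC1_GFAP culture or any 1 mGC3_CNP culture, the difference from mGC3_CNP did not pass (adjusted p = 0.0532 to 0.0924, differences of -0.63 to -0.51).

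Between mGC1_GFAP and mGC2_NES, 4 of the 39 probe sets were called (10.3%, against 6.13% of all), those of Dcc, Ntn4, Unc5c and Unc5d. Unc5c was higher in mGC1_GFAP by 0.26 ± 0.06 (adjusted p = 0.037), a small difference between tightly grouped cultures, at 11.61 ± 0.02 and 11.35 ± 0.05 (SD, n = 3 each). It did not pass without any 1 culture of these groups or without mGC3_CNP replicate 2 or 3 (adjusted p = 0.0549 to 0.124, differences of 0.24 to 0.29). Unc5d was at 6.91, 7.22 and 7.05 in mGC1_GFAP, 7.54, 8.56 and 8.58 in mGC2_NES and 7.08, 7.84 and 7.76 in mGC3_CNP on probe set 10577999. The mGC1_GFAP cultures were under background and the mGC2_NES cultures above it, a difference of at least 1.16 in size (-1.16 ± 0.29, adjusted p = 0.0476). That call was lost without any 1 mGC1_GFAP culture, mGC2_NES replicate 2 or 3, or mGC3_CNP replicate 2 or 3 (adjusted p = 0.0627 to 0.149, differences of -1.24 to -0.99). Its other probe set, 10577996, differed by -1.52 ± 0.48 (adjusted p = 0.1).

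Between mGC1_GFAP and mGC3_CNP, 2 probe sets were called (Dcc and Ntn4, 5.13%, against 0.487% of all). Between mGC2_NES and mGC3_CNP limma called 0 (against 0.459% of all), with 7 genes at an unadjusted p under 0.05 (13.3% of all probe sets), namely Epha2, Robo2, Ntn1, Ntn3, Dcc, Unc5c and Unc5d. Robo2, lowest in mGC2_NES, differed there by -0.69 ± 0.27 (adjusted p = 0.321) and between mGC1_GFAP and mGC2_NES by 0.90 ± 0.27 (adjusted p = 0.0907). No Eph receptor or ephrin was called between tumour groups by limma.

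**Figure D5:**
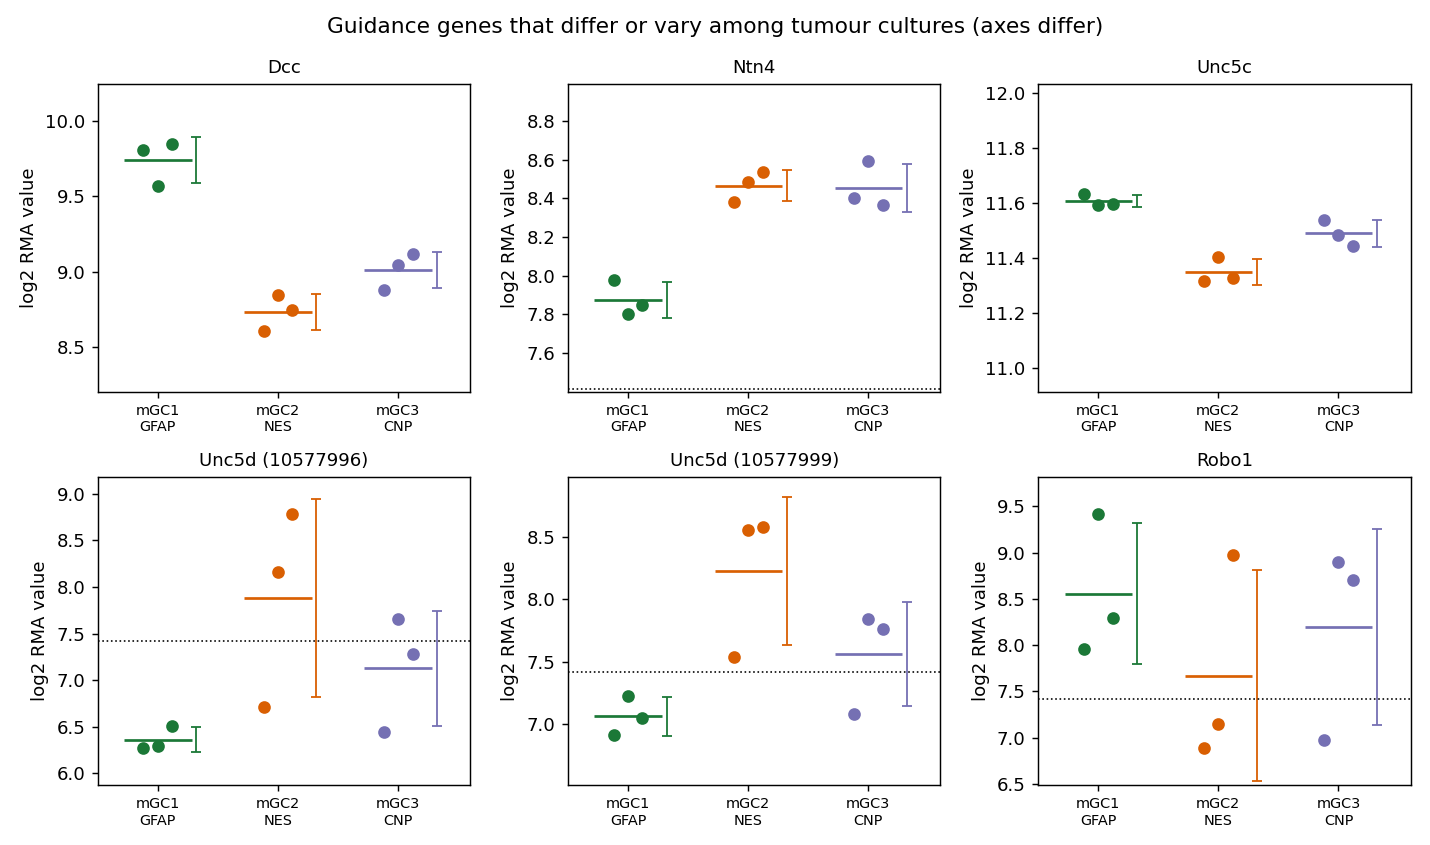
Log2 RMA values of 6 probe sets in the 9 tumour cultures, with a point per culture, a line at the mean, a bar for ± 1 SD (n = 3 per group), a dotted line at 7.42 where it falls in range, and a vertical axis that differs between panels. Dcc is highest and Ntn4 lowest in mGC1_GFAP, while Unc5d and Robo1 spread widely within groups.

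Some genes differed more between cultures of a group than between groups. Robo1, a slit receptor, was at 7.96, 9.42 and 8.30 in mGC1_GFAP, 6.89, 7.14 and 8.98 in mGC2_NES and 6.98, 8.90 and 8.70 in mGC3_CNP, so each group held values far apart and the SD over the 9 cultures was 0.95. Unc5d probe set 10577996 read 6.71, 8.16 and 8.78 in mGC2_NES, 6.45, 7.66 and 7.28 in mGC3_CNP and 6.28, 6.30 and 6.51 in mGC1_GFAP, where it stayed low. In mGC3_CNP replicate 1, Epha3 was highest of all cultures at 8.27 while Epha5 was lowest at 5.66. Slit2 rose above background in mGC3_CNP replicate 3 alone, at 7.63, with the other tumour cultures between 6.0 and 7.22.

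Genes acting with these receptors were counted on a fixed list, of which 50 of 52 genes were measured (Ptk2 and Ntng2 were not). In tumour against NSC, 18 rose, 16 fell and 16 did not pass, and 66% of their probe sets were called, beside 36.7% of all. Of 13 genes of slit and Robo signalling, 7 rose and 4 fell (85.7% of probe sets called). Arhgap39, a Robo-binding GTPase-activating protein, rose from 9.44 ± 0.19 to 11.28 ± 0.37 (1.84 ± 0.13), and Srgap1, a slit-Robo GTPase-activating protein, from 9.41 ± 0.15 to 11.01 ± 0.23 (1.60 ± 0.14). The related Srgap2 (-0.80 ± 0.06) and the kinase gene Abl1 (-0.99 ± 0.07) fell. Of 18 netrin partners, 7 rose and 6 fell (65.0% of probe sets called). Dscam, a cell adhesion protein that also binds netrin, rose from 10.26 ± 0.17 to 12.45 ± 0.06 (2.20 ± 0.07), and its relative Dscaml1 from 7.99 ± 0.44 to 10.15 ± 0.32 (2.16 ± 0.19). Draxin, a secreted ligand of Dcc, fell from 9.22 ± 0.72 to 7.76 ± 0.17 (-1.46 ± 0.22). Ntng1, encoding a membrane-anchored netrin-G, fell on 1 probe set (-0.81 ± 0.08), where both means were under background, and differed by 0.01 ± 0.06 on the other.

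Of 19 genes of Eph and ephrin signalling, 4 rose and 6 fell, with 52.6% of their probe sets called against 36.7% of all (17.6% higher, 19.2% lower). The largest difference was in Vav3, which fell from 11.51 ± 0.42 to 8.38 ± 0.30 (-3.13 ± 0.15). Ptpro, a phosphatase that acts on Eph receptors, rose from 9.40 ± 0.48 to 10.47 ± 0.22 (1.07 ± 0.16). Between mGC1_GFAP and mGC2_NES, Sipa1l1 (-0.71 ± 0.10, adjusted p = 0.00645), Arhgap39 (-0.69 ± 0.17, adjusted p = 0.044) and Vav3 (-0.55 ± 0.13, adjusted p = 0.0413) were lower in mGC1_GFAP. Flrt3, an Unc5 ligand on the cell surface, was higher there (0.59 ± 0.10, limma adjusted p = 0.0114). The calls of this comparison were 7.55% of the 53 partner probe sets, near the 6.13% of all. Between mGC1_GFAP and mGC3_CNP, Ablim1 differed by -0.69 ± 0.11 (limma adjusted p = 0.0385), with means of 6.63 and 7.33 under background. It was the only partner gene called there, 1.89% of the probe sets against 0.487% of all. The differences of these 5 partner genes were not refitted without single arrays.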

How the data were processed

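RNA of 12 cultures was measured on 1 Affymetrix array each. The authors deposited log2 values, 1 per probe set. The submitters' processing notes name RMA and Affymetrix Expression Console. No source used here gives software versions or how probes were grouped. RMA equalises the arrays' distributions (array medians 7.60 to 7.66), which hides changes shared by most genes. Arrays have no depth, and their number limits precision. The values were used as deposited. Of 28270 probe sets, 23397 were listed in the platform annotation of 2016, and the 21780 with exactly 1 symbol were tested (1617 had several symbols and 4873 were not listed).

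Tests used R 4.3.3 and limma 3.58.1 (lmFit, eBayes, two-sided, Benjamini-Hochberg). Tumour against NSC (the 3 tumour groups weighted equally) and each group against NSC were fitted on 12 arrays, and tumour groups were compared on their 9 arrays. On simulated data the code recovered most shifted genes. Groups come from the labels. Same-numbered mGC2_NES and mGC3_CNP cultures deviated together (correlations of 0.165, 0.254 and 0.132), and with the replicate block that comparison still gave 0 limma calls. The genes, lists and tests were chosen with earlier results of these data known. Named were all guidance genes, and of the partner list the 5 largest called differences in each direction and those that differ among tumour groups.

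Alternatives were a filter on low values, array medians, limma-trend, robust eBayes, mouse line or replicate number as a block, other sample sets, averaging of probe sets, another background reading and leaving out each array.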

Additional observations from a re-analysis of the deposited data

Results flagged for a closer look

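The difference from NSC cultures was not the same in the tumour groups for 4 genes, by limma tests between the tumour groups themselves. Dcc was higher in mGC1_GFAP by 1.01 against mGC2_NES and 0.73 against mGC3_CNP. Ntn4 differed by -0.59 and -0.58 in the same comparisons. Between mGC1_GFAP and mGC2_NES, Unc5c differed by 0.26 and Unc5d by -1.16, a bound since the mGC1_GFAP mean lay under background. Among these, the Dcc and Ntn4 differences between mGC1_GFAP and mGC2_NES kept an adjusted p under 0.05 in all 15 settings tried, and the other 4 differences did not. Groups of 3 cultures were too small for a check on outlying samples.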

How the results depend on the processing

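Of the 22 guidance probe sets called between tumour and NSC cultures, 19 kept their call in every setting run for them (up to 17 each). Slit3, Ntn1 and Ntn4 did not, and no called guidance difference changed sign. With median-centred arrays and with mouse line as a block, Slit3 no longer passed (limma adjusted p = 0.0536 and 0.0507). Leaving out 1 array gave 8 to 12 higher and 11 to 13 lower calls. The ligand median was -0.36 with low probe sets removed and with only ligands above background, and -0.23 to -0.09 without 1 array. Fitting only the 6 arrays compared ended the calls of Epha4 in mGC1_GFAP and mGC2_NES, Ntn3 in mGC2_NES and Epha5 in mGC3_CNP. Robust eBayes ended that of Unc5d between mGC1_GFAP and mGC2_NES, and the replicate block and the 12-array fit those of Unc5c there and of Ntn4 between mGC1_GFAP and mGC3_CNP. Counts between tumour groups were small and moved most. Without 1 array, mGC1_GFAP against mGC2_NES gave 2 to 4, mGC1_GFAP against mGC3_CNP 0 to 2, mGC2_NES against mGC3_CNP 0 to 1 and the F test 2 to 4. For mGC1_GFAP against mGC3_CNP, all 12 arrays in the fit gave 1, and so did the replicate block. Same-numbered tumour cultures correlated at 0.002 to 0.25 in their deviations from the group means, over 0.1 in 5 of 9 pairs, and the own number was best in 11 of 18 checks, a hint of pairing from the data that the labels do not give. Not every pair passed 0.1 in the comparisons with mGC1_GFAP, so the unblocked values stand there. With the olfactory receptor 95th percentile (6.64) as background, 33 genes were above it, against 26. Signal over background was not measured per array, so low values could not be ordered.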

Other observations

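The NSC cultures differed among themselves in several guidance genes, with 1 culture per mouse line and so no test. Epha2, Efnb2 and Unc5b had the same order, highest in the N/tv-a culture (8.94, 10.29 and 9.35), then the C/tv-a culture (7.96, 9.71 and 8.80) and lowest in the G/tv-a culture (7.53, 8.71 and 8.31). Ephb6, Efna4, Epha8, Dcc and Ephb1 probe set 10596115 also had this order, so it set no group of genes apart. Epha4 had the reverse order, at 9.61 in the G/tv-a, 8.77 in the C/tv-a and 8.38 in the N/tv-a culture. Efna2, Efna3, Efnb1, Slit1, Slit2, Ntn1, Ntn3 and others shared that reverse order. Ephb4 stayed within 8.90 to 8.95. In tumour cultures of these lines, the group means of Efnb2 were 8.17 (N/tv-a), 8.24 (C/tv-a) and 8.08 (G/tv-a). Those of Epha2 were 7.11, 6.71 and 6.83 in the same order of lines, all under background.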
